A study of Mus musculus with 8 samples.

Results

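The integrated stress response genes analysed here are 38 genes chosen by symbol for their known roles: *Atf4*, *Ddit3* (the gene of CHOP) and genes that are known targets or regulators of these factors, with amino acid response genes and aminoacyl-tRNA synthetases among them. The choice was made with earlier results of these data known, so the counts below are descriptions and not independent evidence. All 38 matched 1 gene of the deposited tables, which list 48795 genes, and 36 of the 38 had enough counts to be tested among 13040 genes. They were measured by RNA sequencing of peritoneal macrophages (pMacs) of CD1d-KO mice and WT littermates, with 4 libraries per genotype, each from a separate mouse. CD1d-KO mice lack CD1d, a surface molecule that presents lipids to natural killer T cells, in every cell, and they also lack those T cells. A CD1d-deficient strain named in the methods is B6.129S6-Del(3Cd1d2-Cd1d1)1Sbp/J, in which both CD1d genes are deleted. Another combines a CD1d flox allele with PGK Cre, whose promoter is active in most cells. The labels do not say which strain these libraries came from. The mice were adult and matched for age and sex, and the pMacs were not stimulated. Replicates were numbered 1, 2, 3 and 5 under both genotypes, and libraries with the same number were compared as 4 pairs.

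In this pathway several kinases, among them PERK (*Eif2ak3*) at the endoplasmic reticulum and GCN2 (*Eif2ak4*) during amino acid shortage, phosphorylate the translation factor eIF2. Most protein synthesis then slows, while the mRNA of the transcription factor ATF4 is translated more. ATF4 drives genes for amino acid uptake and synthesis, for tRNA charging, and for CHOP, TRIB3 and GADD34 (*Ppp1r15a*), several of which feed back to end the response. The pathway is active in macrophages under nutrient, lipid and oxidative stress. Protein levels and eIF2 phosphorylation were not measured in these libraries.

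Values are normalized counts, which are RSEM expected counts scaled to the mean library size, unless TPM, a level corrected for gene length and depth, is named. Library totals ran from 13698864 to 19059432 expected counts. *Cd1d1* (chromosome 3 of GRCm38, 86995834 to 86999441) had normalized counts of 68.2, 175, 96.1 and 141 in WT replicates 1, 2, 3 and 5 and of 1.14, 0 and 1.10 in CD1d-KO replicates 2, 3 and 5. The library labelled CD1d-KO replicate 1 held 60.7, close to WT replicate 1, so the counts and the leading genes below are also given without replicate 1. In the edgeR fit used below, *Cd1d1* itself had a log2 fold change (CD1d-KO minus WT) of -3.42 and did not pass (adjusted p = 0.233 from edgeR). Without replicate 1 its adjusted p from edgeR was 0.000685. The 8 macrophage markers summed to between 379065 and 442021 normalized counts in WT and between 325363 and 394178 in CD1d-KO libraries, and none was at 0. The summed markers of large peritoneal macrophages (18218 to 27204 in WT, 26136 to 34756 in CD1d-KO), of neutrophils (49.3 to 62.3 and 85.8 to 98.9) and of mesothelial cells (5.25 to 9.67 and 10.3 to 22.7) moved with the genotype. Of the 8 neutrophil markers 7 had at most 10 counts in every library and *Ly6g* was at 0, and of the 8 mesothelial markers 6 had at most 10 counts and *Krt19* was at 0. B cell markers ran from 3169 to 8744 in WT and from 2043 to 14437 in CD1d-KO libraries. The part of these cells in the results below was not tested, and in bulk RNA fewer cells of a type and less RNA per cell cannot be told apart.

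The stress response genes had higher mRNA levels in CD1d-KO than in WT pMacs at *Ddit3*, *Trib3*, *Chac1* and *Sesn2*, by 1.58-fold to 2.32-fold, and smaller differences in the same direction, at an unadjusted p under 0.05, in 15 further genes. The PERK and GCN2 mRNAs, the abundant transporter mRNAs *Slc7a11* and *Slc3a2*, and *Cebpb* were not higher at that p. None of the 36 tested genes passed the study's thresholds (adjusted p under 0.01 and fold change above 1.5) in the quasi-likelihood test of edgeR, which called 5 of the 13040 genes (0.0383%). At an adjusted p under 0.05, 4 of the 36 were higher and 0 lower, where 0.284% of all tested genes were higher. At an unadjusted p under 0.05, 19 of the 36 were higher, where 7.35% of all tested genes were, and 0 were lower, where 5.01% were. The study itself applied these thresholds with DESeq2, which here called 4 of the 36, all higher (0.543% of the genes with an adjusted p). Over all genes this DESeq2 fit called 104, of which 71 were higher. The study reported more genes at these thresholds, and more of them lower than higher. The reason for this difference was not tested. At an adjusted p under 0.05 DESeq2 had 10 of the 36 (1.45% of genes were higher at that threshold). With no filter on counts edgeR called 4 of them higher (0.690% of genes). The 4 genes called by DESeq2 and the 4 at an adjusted p under 0.05 in edgeR were *Ddit3*, *Trib3*, *Chac1* and *Sesn2* in both cases.

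The fitted log2 fold changes (CD1d-KO minus WT, so that a positive value is a higher level in CD1d-KO) had a median of 0.29 over the 36 genes and of 0.00 over all 13040 tested genes. Of the 36 genes, 29 were fitted higher and 7 lower, where 51.0% and 49.0% of all tested genes were. In 21 of the 36 the CD1d-KO library exceeded its WT partner in all 4 pairs, as 10.6% of all tested genes did, and in 1, *Eif2ak4*, it was lower in all 4, as 10.1% did. Pair by pair, the CD1d-KO level was above the WT level for 26, 34, 26 and 26 of the 36 genes in pairs 1, 2, 3 and 5, where between 48.8% and 51.7% of all tested genes were. The median log2 ratios of the 36 genes were 0.19, 0.43, 0.18 and 0.22 in the same order, so the difference was largest in pair 2. Without replicate 1 the median was 0.29 and 20 of the 36 were higher at an unadjusted p under 0.05 (5.55% of genes), but none had an adjusted p under 0.05. Without replicate 2 there were 17 (8.97% of genes) and 2 were lower, *Atf5* and *Slc7a11* (6.17% of genes were lower). Without replicate 3 and without replicate 5 there were 18 each (5.90% and 5.14% of genes). The count of 4 genes at an adjusted p under 0.05 was 4 without replicate 2 and 0 without replicate 1, 3 or 5.

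**Figure D1:**
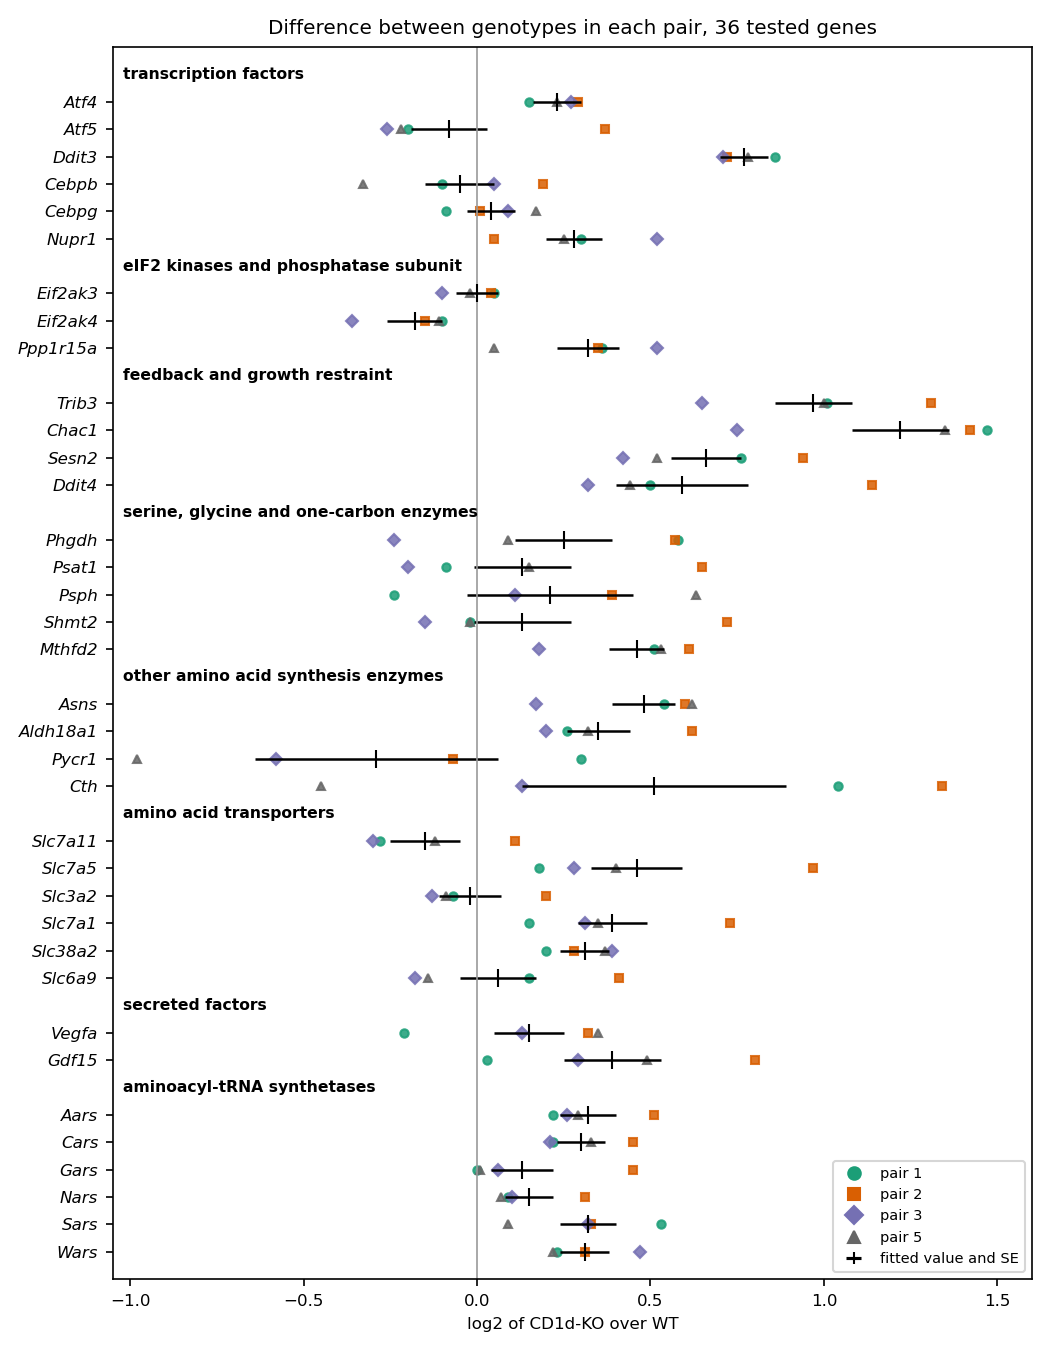
The log2 ratio of the CD1d-KO over the WT normalized count in each of the 4 pairs (coloured symbols) and the fitted log2 fold change with a standard error derived from its F statistic (black) for the 36 tested genes, grouped by role. The points of *Ddit3*, *Trib3*, *Chac1* and *Sesn2* lie right of 0 in all 4 pairs, while those of *Atf5*, *Cebpb*, *Eif2ak3*, *Slc3a2* and *Slc6a9* lie on both sides.

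The transcription factors were led by *Ddit3*. *Atf4* itself (chromosome 15, 80255184 to 80257541) was abundant, with 4080, 5393, 7117 and 4093 normalized counts in WT replicates 1, 2, 3 and 5 and 4516, 6574, 8581 and 4785 in the CD1d-KO libraries of the same numbers. Each CD1d-KO library exceeded its WT partner, the 2 groups overlapped, and the log2 fold change was 0.23 (SE 0.07) and did not pass the test (adjusted p = 0.227 from edgeR). The standard error (SE) given here and below was derived from the test, as the absolute log2 fold change over the square root of the edgeR F statistic. *Ddit3* encodes CHOP, a factor of prolonged stress that can promote cell death, and lies on chromosome 10 from 127290774 to 127296288. Its WT counts were 187, 299, 771 and 286 and its CD1d-KO counts 340, 492, 1266 and 492. Replicate 3 was high in both groups and the groups overlapped, but the log2 ratios of the 4 pairs kept between 0.71 and 0.86. The mean was 386 ± 262 in WT and 648 ± 419 in CD1d-KO pMacs (SD, n = 4 libraries each). The fitted log2 fold change was 0.77 (SE 0.07), a fold of 1.70 (adjusted p = 0.0120 from edgeR, 9.92e-08 from DESeq2). Without replicate 1 it was 0.74 with an adjusted p of 0.0531, and over all alternatives the adjusted p of *Ddit3* ran from 9.92e-08 to 0.997, the last with no term for the replicate number. Exons of *Ddit3* share 68 bases with *Mars* on the opposite strand, and the strand setting of the counts is not given in the sources used here.

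*Nupr1*, a small stress-induced chromatin protein, had normalized counts of 679, 896, 1137 and 932 in WT against 833, 925, 1627 and 1111 in CD1d-KO pMacs. All 4 pairs were higher in CD1d-KO, by as little as 0.05 on the log2 scale in pair 2, and the fitted value was 0.28 (SE 0.08) (adjusted p = 0.233 from edgeR). The pairs of the other factors differed in direction. *Atf5*, which is also translated under eIF2 phosphorylation, had a log2 fold change of -0.08 (SE 0.11), with 1 pair higher and 3 lower. *Cebpb*, an inflammatory C/EBP factor, was the most abundant factor by TPM (572 ± 44.2 in WT, SD, n = 4), and its log2 fold change was -0.05 (SE 0.10). *Cebpg*, the C/EBP partner of ATF4, had 0.04 (SE 0.07).

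The genes grouped here under feedback and growth restraint differed most as a group. In all 4 pairs these 4 genes were higher in CD1d-KO pMacs (10.6% of all tested genes were), and for 3 the adjusted p was under 0.05 (0.284% of all tested genes were higher at that threshold). *Trib3* encodes a pseudokinase that binds ATF4 and CHOP and restrains AKT. The study picked it for display from these same libraries, so its direction is not independent evidence. Its normalized counts were 125, 178, 841 and 159 in WT against 252, 443, 1319 and 320 in CD1d-KO pMacs. WT replicate 3 stood above 3 of the 4 CD1d-KO libraries, yet within its pair the CD1d-KO library was higher still. *Trib3* had a log2 fold change of 0.97 (SE 0.11), a fold of 1.96 (adjusted p = 0.0230 from edgeR, 2.61e-07 from DESeq2), and without replicate 1 the value was 0.96 with an adjusted p of 0.0824. *Chac1*, which degrades glutathione, had the largest fitted difference of the 36 genes. Its normalized counts were 62.2, 114, 404 and 65.4 in WT against 174, 307, 681 and 167 in CD1d-KO pMacs, and the log2 ratio was between 1.35 and 1.47 in pairs 1, 2 and 5 but 0.75 in pair 3. The fitted log2 fold change of *Chac1* was 1.22 (SE 0.14), a fold of 2.32 (adjusted p = 0.0230 from edgeR, 3.17e-07 from DESeq2), and 1.13 without replicate 1 (adjusted p = 0.0817).

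*Sesn2*, a leucine-sensing inhibitor of mTORC1, had normalized counts of 465, 570, 1395 and 478 in WT against 790, 1091, 1871 and 686 in CD1d-KO pMacs. Apart from WT replicate 3, every WT library was below every CD1d-KO library. Its log2 fold change was 0.66 (SE 0.10), a fold of 1.58 (adjusted p = 0.0435 from edgeR, 4.88e-05 from DESeq2), and 0.62 without replicate 1 (adjusted p = 0.154). *Ddit4* (REDD1), another inhibitor of mTORC1, was scarce, with normalized counts of 45.0, 39.8, 101 and 48.5 in WT against 63.7, 88.1, 126 and 66.0 in CD1d-KO pMacs. It was higher in all 4 pairs, most in pair 2 (log2 ratio 1.14), but the fitted value of 0.59 (SE 0.19) did not pass the test (adjusted p = 0.255 from edgeR). The adjusted p of *Trib3* ran from 2.61e-07 to 0.997 over the alternatives, that of *Chac1* from 3.17e-07 to 0.997 and that of *Sesn2* from 4.88e-05 to 0.997.

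**Figure D2:**
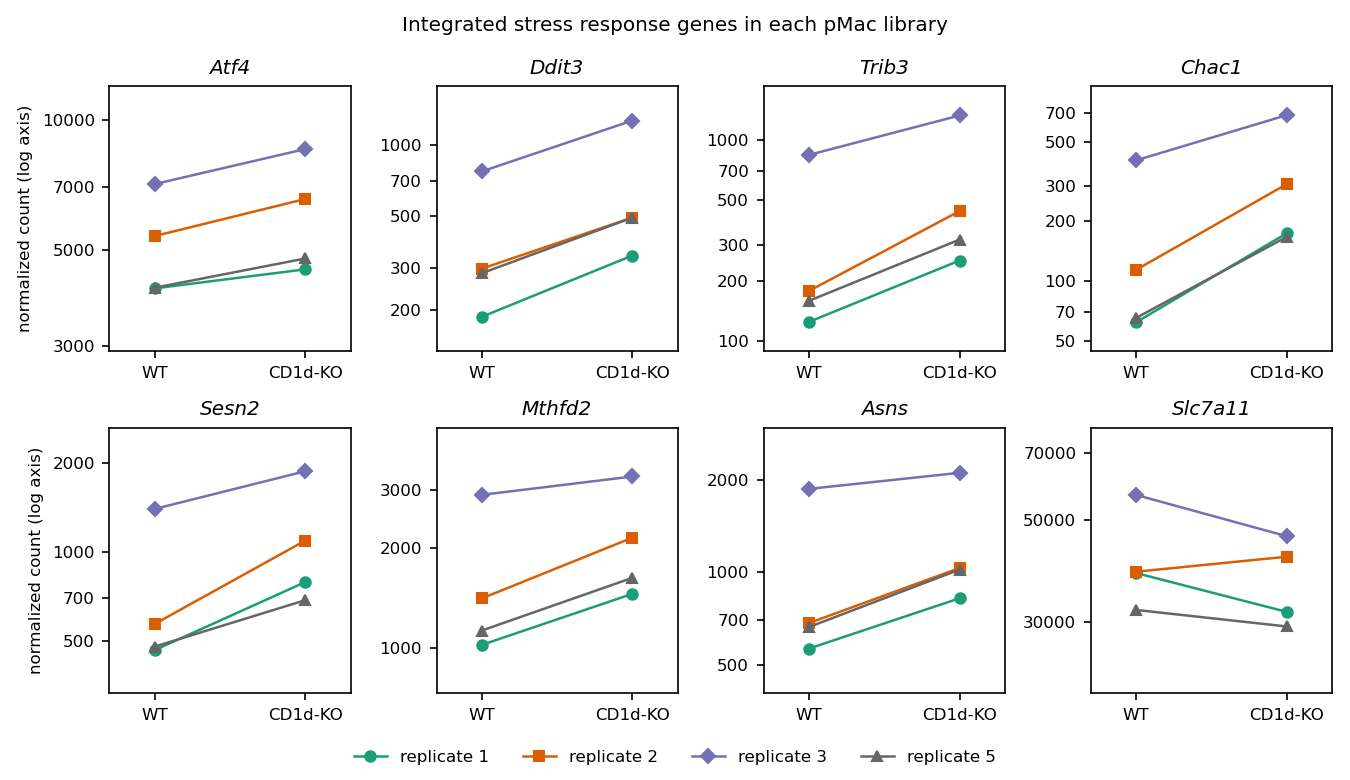
Normalized counts (log axis) of 8 stress response genes in the WT and CD1d-KO library of each replicate number, joined by a line. *Atf4*, *Ddit3*, *Trib3*, *Chac1*, *Sesn2*, *Mthfd2* and *Asns* slope upward in all 4 pairs and replicate 3 is highest in both genotypes, whereas *Slc7a11* slopes downward in pairs 1, 3 and 5.

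The promoters of these genes were searched for the C/EBP-ATF response element, the site that ATF4 and C/EBP factors bind together, by its core TGATGNAA on either strand (TTNCATCA on the other). The windows were taken from RefSeq (GRCm38.p6) and span 250 bases before to 50 bases after the start of each gene. A window was found for 32 of the 38 genes, not for *Wars*, *Cars*, *Cth*, *Slc7a3*, *Slc7a5* and *Nars*. The core was in 9 of the 32 (28.1%) and in 4.51% of the 27025 genes of that table: *Chac1*, *Trib3*, *Slc7a11*, *Asns*, *Gars*, *Fgf21*, *Nupr1*, *Aars* and *Pycr1*. Known targets of ATF4 and CHOP were chosen for the 38 genes, so a share above that of all genes is not independent evidence. These 9 include *Chac1* and *Trib3* with the largest differences, but also *Slc7a11*, *Gars* and *Pycr1*, whose unadjusted p was above 0.05, and *Fgf21*, which was not detected beyond 1 count. *Ddit3* and *Sesn2* had no match in their windows, and sequence outside the windows was not searched, so a core farther away would be missed. The ER stress response element, a site of ATF6, was in 0 of the 32 windows and in 0.14% of genes, and the antioxidant response element core TGACNNNGC, a site of NRF2, was in 10 of the 32 (31.2%) and in 13.99% of genes. The cores of both kinds occurred together in 2 windows, *Asns* and *Aars*, without overlap.

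The sequences around the core are shown 5′ to 3′ on the gene's strand, with the core in capitals, for the 6 genes with a match and the smallest p-values. These 6 include *Slc7a11*, which was lower in 3 of 4 pairs.
*Trib3*, chr2:152344028-152344057: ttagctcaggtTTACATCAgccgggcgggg
*Chac1*, chr2:119351038-119351067: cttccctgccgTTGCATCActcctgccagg
*Asns*, chr6:7693214-7693243: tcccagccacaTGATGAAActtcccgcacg
*Aars*, chr8:111033840-111033869: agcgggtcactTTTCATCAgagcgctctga
*Nupr1*, chr7:126625562-126625591: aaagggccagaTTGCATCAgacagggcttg
*Slc7a11*, chr3:50443652-50443680: cTGATGCAAacctggagaatTTGCATCAt
The cores of *Chac1* and *Nupr1* and the 2nd core of *Slc7a11* share the letters TTGCATCA, and the 1st core of *Slc7a11* is the same letters read on the other strand. The core shown begins at −193 of the RefSeq start in *Chac1*, −110 in *Nupr1*, −23 in *Asns*, 9 in *Aars*, −66 and −47 in *Slc7a11* and 14 in *Trib3*. GENCODE M21 places the cores of *Trib3*, *Chac1* and *Slc7a11* upstream of the gene and those shown of *Asns*, *Aars* and *Nupr1* in an exon of the untranslated region of some transcript. Binding at these letters was not measured.

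Among the kinases and the phosphatase subunit, *Ppp1r15a* (GADD34), which directs a phosphatase to eIF2, was higher in all 4 pairs. Its normalized counts were 775, 990, 1421 and 928 in WT against 995, 1258, 2042 and 957 in CD1d-KO pMacs, with a log2 fold change of 0.32 (SE 0.09) that did not pass the test (adjusted p = 0.19 from edgeR). *Eif2ak3* (PERK) had mean counts of 791 ± 73.3 in WT and 790 ± 92.0 in CD1d-KO pMacs (SD, n = 4), with 2 pairs higher and 2 lower. *Eif2ak4* (GCN2) was lower in all 4 pairs, with a log2 fold change of -0.18 (SE 0.08), which did not pass the test (adjusted p = 0.446 from edgeR).

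Of the serine, glycine and one-carbon enzymes 5 of 5 were fitted higher (51.0% of all tested genes were). Only 1, *Mthfd2*, was higher at an unadjusted p under 0.05 (7.35% of all tested genes were). *Mthfd2*, a mitochondrial folate enzyme, had normalized counts of 1022, 1411, 2895 and 1129 in WT against 1457, 2151, 3288 and 1628 in CD1d-KO pMacs. It was higher in all 4 pairs, least in pair 3 (0.18), and its log2 fold change was 0.46 (SE 0.08) (adjusted p = 0.0872 from edgeR, 0.00254 from DESeq2). *Phgdh*, *Psat1* and *Psph*, the 3 steps of serine synthesis, and *Shmt2*, which makes glycine from serine, had log2 fold changes between 0.13 and 0.25, and each was lower in at least 1 pair. In pair 2 they were higher by 0.39 to 0.72 on the log2 scale, while in pair 3 *Phgdh*, *Psat1* and *Shmt2* were lower by 0.15 to 0.24. Without replicate 2 the fitted values of *Psat1* and *Shmt2* turned negative. *Psph* had at most 55.1 reads in a library and shares 452 exon bases with the abundant *Cct6a* on the opposite strand.

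The other amino acid synthesis enzymes were led by *Asns*, which makes asparagine and is the classic amino acid response gene. *Asns* had normalized counts of 564, 683, 1871 and 663 in WT against 823, 1033, 2111 and 1021 in CD1d-KO pMacs. All 4 pairs were higher in CD1d-KO, the groups overlapped at WT replicate 3, and the log2 fold change was 0.48 (SE 0.09) (adjusted p = 0.0876 from edgeR, 0.00716 from DESeq2). *Aldh18a1*, the 1st enzyme of proline synthesis from glutamate, had normalized counts of 436, 433, 664 and 439 in WT against 523, 667, 765 and 549 in CD1d-KO pMacs, and a log2 fold change of 0.35 (SE 0.09) (adjusted p = 0.167 from edgeR). *Pycr1*, which ends proline synthesis, and *Cth*, which makes cysteine, were scarce, with means of 16.2 ± 4.79 and 17.3 ± 15.3 normalized counts in WT pMacs (SD, n = 4). Their log2 fold changes, -0.29 (SE 0.35) and 0.51 (SE 0.38), did not pass the test, and neither gene had more than 37 reads in a library.

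The amino acid transporters divided by member. *Slc7a5* (LAT1, which brings in leucine and other large amino acids) had normalized counts of 1009, 1102, 2229 and 1045 in WT against 1147, 2163, 2706 and 1374 in CD1d-KO pMacs. The log2 ratio was 0.97 in pair 2 and between 0.18 and 0.40 in the other pairs, and the fitted value was 0.46 (SE 0.13) (adjusted p = 0.201 from edgeR). *Slc7a1* (CAT1), the arginine and lysine transporter, had normalized counts of 2282, 2140, 3826 and 2158 in WT against 2529, 3561, 4734 and 2759 in CD1d-KO pMacs, with a log2 fold change of 0.39 (SE 0.10) (adjusted p = 0.179 from edgeR, 0.0442 from DESeq2). *Slc38a2* (SNAT2), which takes up small neutral amino acids, had normalized counts of 2740, 3078, 4135 and 2227 in WT against 3138, 3742, 5422 and 2869 in CD1d-KO pMacs. Its pair ratios kept between 0.20 and 0.39, and the log2 fold change was 0.31 (SE 0.07) (adjusted p = 0.144 from edgeR, 0.0135 from DESeq2). The cystine importer xCT (*Slc7a11*) and the heavy chain it shares with LAT1 (*Slc3a2*) were not higher at an unadjusted p under 0.05. *Slc7a11* had normalized counts of 38364, 38614, 56811 and 31867 in WT against 31554, 41644, 46156 and 29323 in CD1d-KO pMacs, lower in 3 of 4 pairs, with a log2 fold change of -0.15 (SE 0.10) (adjusted p = 0.593 from edgeR). *Slc3a2* had a log2 fold change of -0.02 (SE 0.09) and the highest level per length of the 38 genes, 853.0 ± 230.0 TPM in WT pMacs (SD, n = 4). The glycine transporter *Slc6a9* had 0.06 (SE 0.11), and *Slc7a3* (CAT3) was not tested, with at most 6 reads in a library. Exons of *Slc6a9* share 1429 bases with *Ccdc24* on the opposite strand.

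Of the secreted factors, *Gdf15*, a stress hormone that lowers appetite, had normalized counts of 100, 99.9, 369 and 97.0 in WT against 102, 174, 452 and 136 in CD1d-KO pMacs. Its log2 ratio was 0.03 in pair 1 and 0.80 in pair 2, and the fitted value of 0.39 (SE 0.14) did not pass the test (adjusted p = 0.3 from edgeR). *Vegfa*, the vascular growth factor, was higher in 3 of 4 pairs, with a log2 fold change of 0.15 (SE 0.10). *Fgf21*, a starvation hormone, had 1 read in 1 WT library and 0 in the other 7, and was not tested; a count of 0 allows up to 3 reads in a library.

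All 6 aminoacyl-tRNA synthetases, the enzymes that charge tRNAs with amino acids, were higher in the CD1d-KO library of all 4 pairs (10.6% of all tested genes were). Of the 6, 4 had an unadjusted p under 0.05 (7.35% of all tested genes were higher at that p). *Aars* (alanine) had normalized counts of 2959, 3417, 5579 and 3287 in WT against 3436, 4862, 6699 and 4012 in CD1d-KO pMacs, with a log2 fold change of 0.32 (SE 0.08). *Cars* (cysteine) had 898, 847, 1399 and 837 in WT against 1050, 1158, 1621 and 1051 in CD1d-KO pMacs, with 0.30 (SE 0.07). The pair ratios of *Aars* and *Cars* lay between 0.21 and 0.51, and the ranges of the groups overlapped for both genes. *Sars* (serine) had 704, 826, 1339 and 941 in WT against 1014, 1042, 1672 and 1005 in CD1d-KO pMacs, with a log2 fold change of 0.32 (SE 0.08). *Wars* (tryptophan, also induced by interferon) had 1020, 1459, 2043 and 1551 in WT against 1196, 1815, 2823 and 1808 in CD1d-KO pMacs, with 0.31 (SE 0.07). The adjusted p of these 4 genes was between 0.144 and 0.169 in edgeR, and *Aars* (0.0187) and *Wars* (0.0461) were under 0.05 in DESeq2. *Gars* (glycine) and *Nars* (asparagine) had log2 fold changes of 0.13 (SE 0.09) and 0.15 (SE 0.07), and the log2 ratios of *Gars* were 0.00 and 0.01 in pairs 1 and 5. Exons of *Aars* share 1326 bases with *Exosc6* on the same strand, a gene with a mean expected count of 0.0. How reads in the shared bases were divided was not tested.

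Other genes of the pathway and of neighbouring stress programmes were described from lists written for this purpose. These lists too were chosen with earlier results of these data known. Of 18 tested other ATF4 and CHOP targets, 5 were higher (7.35% of all tested genes were) and 1 lower (5.01% were) at an unadjusted p under 0.05. Their median log2 fold change was 0.26, and 12 of the 18 were fitted higher (51.0% of all tested genes were). *Jdp2*, a repressor of AP-1, was the only one of these with an adjusted p under 0.05 in edgeR. It had 64.4, 95.6, 236 and 87.5 normalized counts in WT replicates 1, 2, 3 and 5 and 123, 220, 443 and 129 in CD1d-KO pMacs, a log2 fold change of 0.91 (SE 0.13, adjusted p = 0.0428 from edgeR, 0.127 without replicate 1 and from 0.000145 to 0.997 over the alternatives). *Pck2*, which makes phosphoenolpyruvate in mitochondria, had a log2 fold change of 0.57 (SE 0.11, adjusted p = 0.0967 from edgeR). *Eif4ebp1*, a brake on translation, had 0.42 and *Herpud1*, an ER degradation factor, had 0.39, each higher in all 4 pairs. The members of eIF2, its exchange factor eIF2B and other regulators, 14 genes, had a median of 0.01. *Eif2s2* (0.19) and *Impact* (0.18), an inhibitor of GCN2 activation, were higher at an unadjusted p under 0.05 (7.35% of genes were).

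The other 14 cytosolic synthetases had a median log2 fold change of 0.03, against 0.31 for the 6 listed ones. At an unadjusted p under 0.05, *Yars* (0.26) was higher (7.35% of genes were) and *Farsb* (−0.32) lower (5.01% of genes were). The 17 mitochondrial synthetases had a median of −0.04 and none under that p. The 16 genes listed as targets of XBP1 and ATF6, the other arms of the endoplasmic reticulum stress response, had a median of 0.00. They ran from −0.17 to 0.18. Of these 16, *Sec61b* (−0.17) alone had an unadjusted p under 0.05 (5.01% of genes were lower at that p). *Herpud1* (0.39), the ER degradation factor named above, was counted with the other ATF4 and CHOP targets and not in this list. Of 12 NRF2 targets, the antioxidant programme to which *Slc7a11* also belongs, all 12 were fitted lower (49.0% of all tested genes were) and 6 had an unadjusted p under 0.05 (5.01% of genes were lower at that p), with a median of −0.26. *Txnrd1* (−0.33), *Srxn1* (−0.34), *Tkt* (−0.28) and *Pgd* (−0.27) had the smallest unadjusted p of that list, whose fitted values ran from −0.53 to −0.13, and none of the 12 had an adjusted p under 0.05 in edgeR, while 1, *Txnrd1*, had 0.0446 in DESeq2. Without replicate 1 the NRF2 median was −0.24 and 2 of the 12 were lower at an unadjusted p under 0.05 (3.68% of genes). By pair the NRF2 medians were −0.39, 0.04, −0.41 and −0.32, beside *Slc7a11* ratios of −0.28, 0.11, −0.30 and −0.12 in pairs 1, 2, 3 and 5. The 8 tested p53 targets, which share *Sesn2* and *Ddit4* with this pathway, had a median of −0.17. Among them *Mdm2* (0.19) was higher (7.35% of genes were) and *Ccng1* (−0.22) lower (5.01% of genes were) at an unadjusted p under 0.05.

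**Figure D3:**
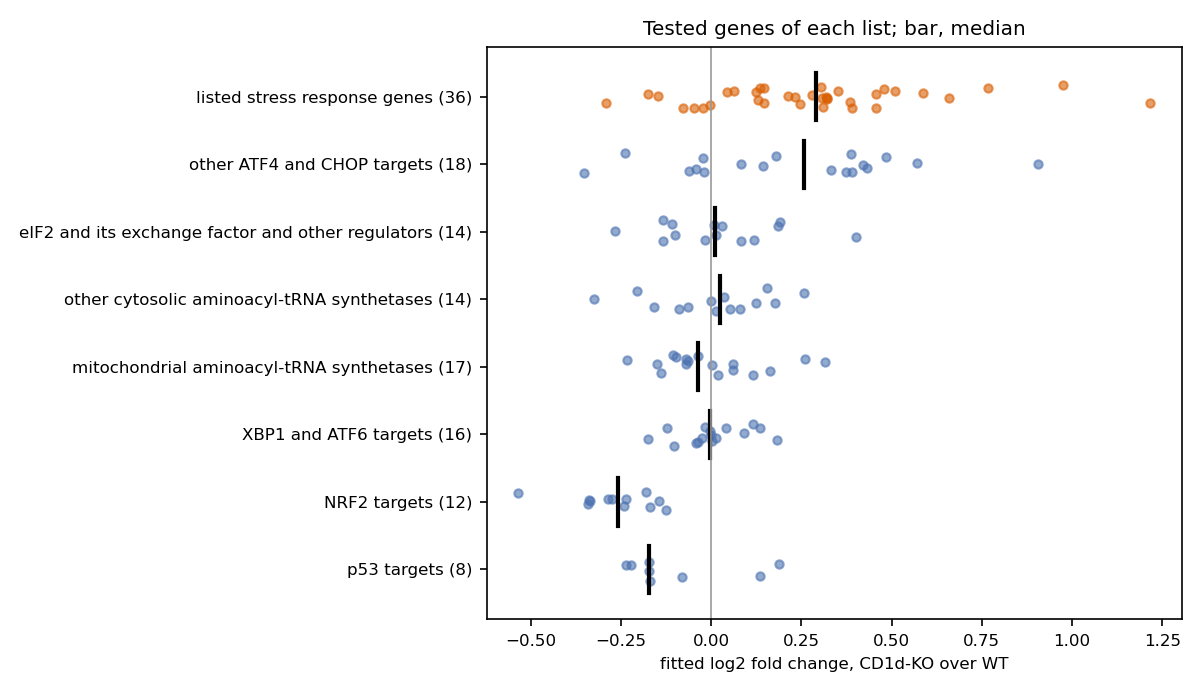
Fitted log2 fold change (CD1d-KO over WT) of each tested gene of the 36 stress response genes (orange) and of 7 other lists (blue), with the number tested in brackets and the median as a black bar. The listed genes and the other ATF4 and CHOP targets centre at 0.29 and 0.26, the XBP1 and ATF6 targets at 0.00 and the NRF2 targets at −0.26.

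The level of these genes also varied with the replicate number. Replicate 3 had the highest normalized count in both genotypes for 27 of the 36 tested genes (75.0%), against 17.6% of all tested genes. Relative to the mean of the other 3 libraries of its genotype on the log2 scale, replicate 3 was higher by a median of 0.69 in WT and 0.71 in CD1d-KO pMacs over the 36 genes, and by −0.02 in both over all tested genes. The genes grouped under feedback and growth restraint had values of 1.92 in WT and 1.44 in CD1d-KO pMacs, and the secreted factors *Gdf15* and *Vegfa* had 1.55 and 1.46. WT replicate 3 held 5.45 times as much *Trib3* and 5.02 times as much *Chac1* as the mean of the other WT libraries. The other ATF4 and CHOP targets were high in replicate 3 too (0.69 and 0.65), whereas the XBP1 and ATF6 targets (−0.17 and −0.13), the NRF2 targets (−0.12 and −0.17) and the mitochondrial synthetases (−0.24 and −0.18) were not. The 9 genes that were not highest in replicate 3 of both genotypes were *Atf5*, *Cebpg*, *Eif2ak3*, *Eif2ak4*, *Psat1*, *Psph*, *Shmt2*, *Pycr1* and *Slc6a9*. The summed markers of large peritoneal macrophages were highest and those of neutrophils lowest in replicate 3 of each genotype, the sums of the other 6 marker lists lay between those of the other libraries of the genotype. WT replicate 3 had the lowest total of the WT libraries (13875116), and CD1d-KO replicate 3 (14620659) lay between the other CD1d-KO totals. The part of these cells and of depth in the level of replicate 3 was not tested.

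Within a genotype the SD of the log2 level over libraries had a median of 0.39 in WT and 0.42 in CD1d-KO pMacs over the 36 genes, against 0.25 and 0.26 over all tested genes. The SD of the 4 pair ratios was 0.21 for the 36 genes and 0.24 for all tested genes, and it was smaller than the SD over WT libraries in 31 of the 36 (86.1%) against 48.6% of all genes. *Ddit3* showed this most plainly, with an SD of 0.86 over WT libraries and 0.07 over pair ratios, and *Atf4* had 0.38 and 0.06. With no term for the replicate number the adjusted p of edgeR was above 0.05 for all 36 genes, and the fitted log2 fold changes were 0.75 for *Ddit3*, 0.85 for *Trib3*, 1.05 for *Chac1* and 0.61 for *Sesn2*. The library labelled CD1d-KO replicate 1 held 340 normalized counts of *Ddit3* against 187 in WT replicate 1, a log2 ratio of 0.86, so its ratio lay with those of the other pairs although its *Cd1d1* count did not.

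**Figure D4:**
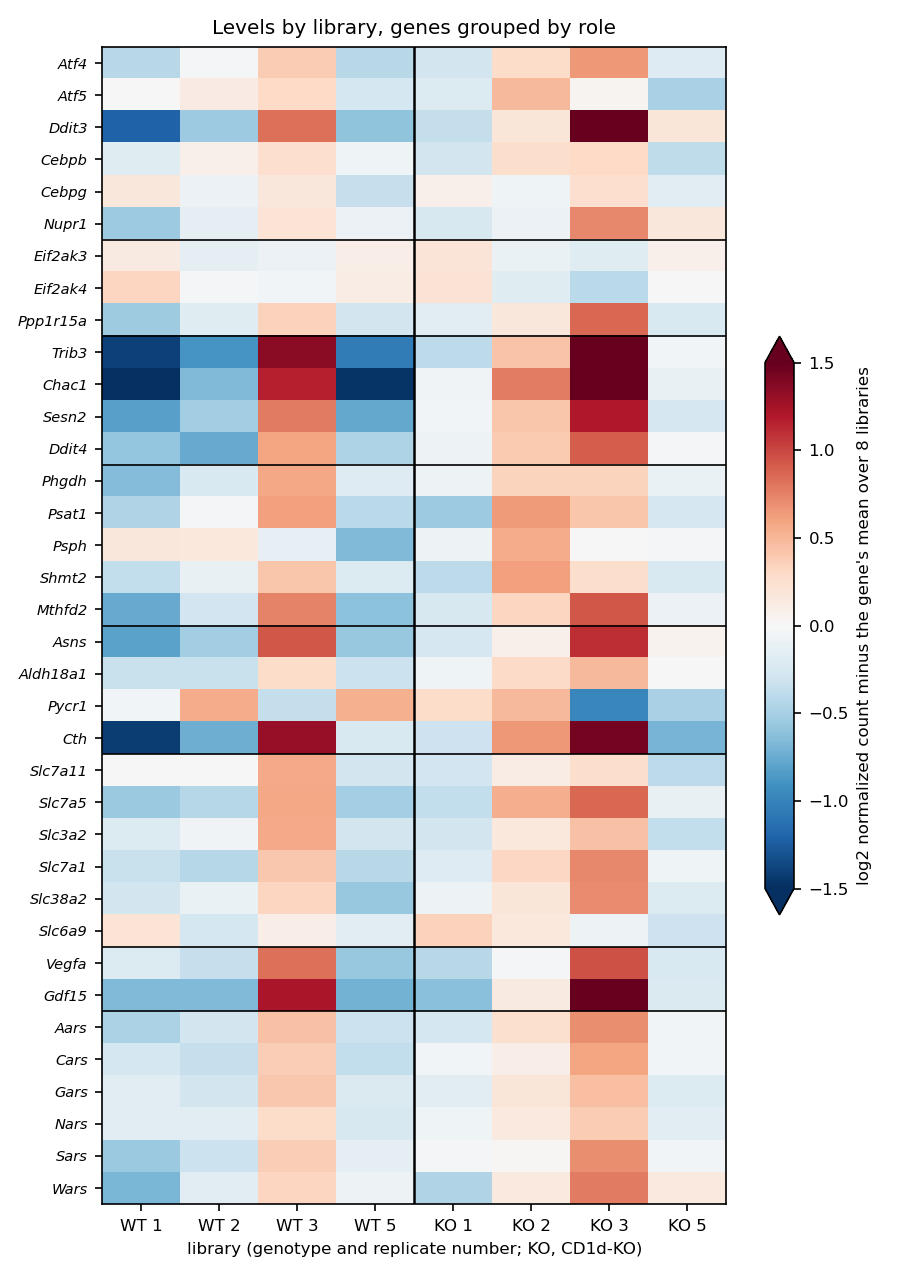
Log2 normalized count of each of the 36 tested genes in the 8 libraries, relative to the gene's own mean over them (red, higher; blue, lower; colours saturate at 1.5), with genes grouped by role between black lines. The columns WT 3 and KO 3 are red for most genes of every role but the eIF2 kinases, and KO 2 is the next reddest.

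By level per length, *Slc3a2* (853.0 ± 230 TPM in WT, SD, n = 4), *Cebpb* (572 ± 44.2), *Slc7a11* (498 ± 108) and *Atf4* (314 ± 70.6) were the most abundant of the 38. *Cebpb* and *Slc7a11* did not differ beyond their SD. The synthetases lay between 49.2 (*Sars*) and 105 (*Nars*) TPM in WT pMacs, and *Ddit3* at 46.9 ± 30.2. *Trib3* (16.8 ± 17.4), *Gdf15* (12.6 ± 9.57) and *Chac1* (10.1 ± 9.85) were lower and varied widely among libraries, and *Ddit4* (3.65 ± 1.63), *Psph* (3.12 ± 0.801), *Cth* (1.12 ± 0.912) and *Pycr1* (0.832 ± 0.283) were the scarcest of the tested genes. The genes with the largest differences between the genotypes were thus among those of middle to low level, and neighbours in this order mostly lay within each other's SD. Of the 38 genes *Phgdh*, *Cth*, *Slc7a11* and *Sars* share chromosome 3 with *Cd1d1*, the nearest 11.3 Mb from it, and none of the 4 genes with the smallest adjusted p lies there.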

How the data were processed

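The authors sequenced polyadenylated RNA of pMacs (single-end), trimmed the reads with Cutadapt, aligned them to GRCm38 with STAR (2.5.2a) and quantified Ensembl genes by RSEM (1.3.0), as the labels and methods state. The deposited expected counts are not normalized, and RSEM divides reads that match several genes, so pseudogene copies share reads. The deposited TPM values were scaled to gene length and depth by the authors and were used for levels only. Expected counts were rounded. Library totals are 13698864 to 19059432. Genes kept by filterByExpr (13040) were normalized by TMM and tested with the quasi-likelihood test of edgeR (4.0.16, R 4.3.3) on replicate number and genotype, with Benjamini-Hochberg adjustment over all of them. The call thresholds, adjusted p below 0.01 with more than 1.5-fold change, follow the methods, where they were applied with DESeq2 and not with edgeR. DESeq2 (1.42.0) and limma (3.58.1), other filters and scalings, and leaving out each pair were alternatives. Scripts were tested on simulated data.

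The authors' covariates pair the samples by number. Deviations from the group means correlated between same-numbered libraries at 0.487, 0.387, 0.505 and 0.207 for replicates 1, 2, 3 and 5, and for replicate 5 another number reached 0.22. No pair of libraries was a copy (smallest chi-square per degree of freedom 13.2 over 28 pairs). Per the methods each library came from a separate mouse. With replicate number in the fit, the p-values measure the spread of the differences within pairs, not the spread of levels between mice. Gene names came from GENCODE M21 (48349 of 48795 gene IDs matched). The members and the lists were chosen with earlier results of these data known, so they are described by counts and medians beside all tested genes, and no test was made of a list. Values in every library are given for *Atf4*, *Ddit3*, *Trib3* and each member with an unadjusted p under 0.05 or a fold change above 1.5. Up to 4 genes of each other list, those with the smallest unadjusted p under 0.05, are named. Promoter windows are shown for at most 6 members with a core match and the smallest p, and 1 window is not reported here.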

Additional observations from a re-analysis of the deposited data

Results flagged for a closer look

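In a group of 4 libraries, a library was marked where its gap to the nearest other library was too large a part of the group's range by Dixon's test at its 95% critical value, which chance alone gives in about 1 of 20 groups. *Cd1d1* stood apart in the library labelled CD1d-KO replicate 1, with 60.7 normalized counts against at most 1.14 in the other CD1d-KO libraries. WT replicate 3 stood high for 12 of the 36 tested stress response genes, against 1.61% of all tested genes: *Trib3* (841 normalized counts), *Chac1* (404), *Sesn2* (1395), *Ddit4* (101), *Asns* (1871), *Aldh18a1* (664), *Slc7a5* (2229), *Slc7a1* (3826), *Gdf15* (369), *Cars* (1399), *Gars* (2499) and *Nars* (3345). CD1d-KO replicate 3 stood high for 3 of the 36, against 0.997% of all tested genes: *Ddit3* (1266), *Asns* (2111) and *Sars* (1672). *Psph* stood high in CD1d-KO replicate 2 (53.8). These genes are known to respond together, so their marks are not separate observations. What set replicate 3 apart was not tested.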

How the results depend on the processing

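The 4 genes at an adjusted p under 0.05, *Ddit3*, *Trib3*, *Chac1* and *Sesn2*, kept a log2 fold change of at least 0.57 in all 14 alternative fits, but their adjusted p depended on the fit. The number of stress response genes past the study's thresholds was 0 in edgeR, 4 in DESeq2, 4 with no filter on counts, and 4 at an adjusted p under 0.05 with no fold threshold. It was 0 without each pair in turn. The number at an adjusted p under 0.05 was 4 in the edgeR fit, 10 in DESeq2, 10 with no filter on counts, 0 with limma-trend on log2(TPM + 1) or log2(TPM + 0.1), 0 with no replicate block, 0 without the library labelled CD1d-KO replicate 1 and no block, and 0 to 4 when a pair was left out. Over all tested genes the thresholds gave 5 calls in edgeR, 104 in DESeq2, 236 with no filter on counts, 3 and 3 with limma-trend at the 2 pseudocounts, 3 with no replicate block, 53 at an adjusted p under 0.05 with no fold threshold, and 3 to 22 when a pair was left out. The median log2 fold change of the tested members, 0.292, stayed between 0.251 and 0.370. The number of members higher in all 4 pairs was 21 with the reported scaling, 21 with DESeq2 size factors and 20 with upper quartile factors.

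Of the list medians, that of the XBP1 and ATF6 targets was 0.041 without the library labelled CD1d-KO replicate 1 and no block, that of the p53 targets was −0.092 in that fit and −0.108 with limma-trend on log2(TPM + 1), and that of the mitochondrial synthetases was −0.111 and −0.088 with limma-trend at pseudocounts 0.1 and 1, and −0.025 to 0.042 when a pair was left out. Values near 0 changed sign in 7 genes, none of which had an unadjusted p under 0.05 in the reported fit: *Atf5* (0.015), *Cebpb* (0.060), *Slc3a2* (0.061) and *Slc6a9* (−0.048) without that library and no block, *Eif2ak3* with DESeq2 size factors (0.00), with at least 10 counts in every library (0.00) and with limma-trend (0.016 and 0.016), and *Slc6a9* with limma-trend (−0.083 and −0.078). When a pair was left out, the values ran from −0.123 to 0.046 for *Cebpb*, −0.024 to 0.028 for *Eif2ak3*, −0.049 to 0.240 for *Psat1*, −0.061 to 0.231 for *Shmt2*, −0.095 to 0.014 for *Slc3a2* and −0.048 to 0.143 for *Slc6a9*. The scaling alternatives shifted the median of all genes by at most 0.0125. The cause of these differences between fits was not tested. *Psph*, *Cth* and *Pycr1* had at most 55.1, 37 and 22 reads in a library.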
